A study of Mus musculus with 24 samples.

Results

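The response of mouse neural progenitor cells to a low dose of the BET bromodomain inhibitor (+)-JQ1, early after its addition, was described across all genes with at least 1 FPKM (fragments per kilobase of transcript, scaled to the number of mapped reads, so that a level is relative to gene length and library size) in 3 or more libraries. These were 13801 of the 26636 genes with a unique symbol in the files. The comparison holds 6 of the 24 libraries of the series: 3 of cells given (+)-JQ1 at 0.2 µM for 12 h, and 3 of cells given its mirror image (−)-JQ1, the inactive control compound, at 0.2 µM for 12 h. All cells came from the cortex of C57BL/6 mouse embryos at embryonic day 12, were grown in B27 supplement with basic fibroblast growth factor, and at passage 3 were moved to differentiation medium with either compound. Per the labels the work was done in 3 independent preparations of progenitors, and the numbers in the sample titles, 1 to 3 in each group, are taken here as the preparations, which no label states outright. An untreated or vehicle group was not analysed here, so every difference is between the enantiomers. The other groups of the series, 0.5 µM and 24 h, served to set the spread and are used beside single results.

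BET proteins carry tandem bromodomains that bind acetylated lysines on histone tails, and they recruit the elongation kinase P-TEFb, which releases paused RNA polymerase II. (+)-JQ1 fits into the acetyl-lysine pocket and displaces BET proteins from chromatin, and its enantiomer, of the opposite configuration at the single stereocentre, does not bind. Genes that lean on dense BET occupancy, among them lineage genes and Myc in many cell types, are known to lose transcription first. Cortical progenitors in culture give rise to neurons, astrocytes and cells of the oligodendrocyte lineage once growth factor is withdrawn.

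The 6 libraries were alike in size, with FPKM sums of 431766 to 498038. The read depth behind them is unknown. Genes above 0 FPKM numbered 17405, 17561 and 17495 in (+)-JQ1 cells, against 18111, 18136 and 18201 in (−)-JQ1 cells. Fewer genes were thus detected in each (+)-JQ1 library, and the groups did not overlap. The markers of the labelled cell type were present in every library: Fabp7 and Vim averaged over 1000 FPKM in both groups, Sox2, Nes, Lhx2 and Msi1 over 25 FPKM, and the cortical factors Pax6 and Emx2 over 9 FPKM. Olig2, a factor of the oligodendrocyte lineage, averaged over 300 FPKM in both groups and Gfap, the astrocyte filament, over 180 FPKM, so the cultures held glial transcripts beside progenitor ones. Of the genes of other sources, none of the 7 erythroid genes passed the filter, and 1 of 12 microglial genes (Cd68), 1 of 9 endothelial genes (Kdr) and 4 of 9 pericyte and fibroblast genes did.

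Across the 13801 genes, 3846 passed the test for a difference between the enantiomers (limma on log2(FPKM + 1), Benjamini-Hochberg adjusted p under 0.05), or 27.9%. Of these, 1136 rose (8.23%) and 2710 fell (19.6%) in (+)-JQ1 cells. These shares are the background for the counts of each gene list below. A change of at least 2-fold on the log2(FPKM + 1) scale was called upward in 99 genes (0.717%) and downward in 529 genes (3.83%), so large falls outnumbered large rises. The median log2 fold change was 0.503 among called rises, −0.65 among called falls and −0.07 over all genes, with a median standard error of 0.14. All 3 (+)-JQ1 libraries lay above all 3 (−)-JQ1 libraries in 2320 genes (16.8%) and below them in 4167 genes (30.2%). Scaling the libraries by their median ratios over genes moved the split to 1735 rises and 2311 falls and the median of all genes to −0.0007. A fit to these 6 libraries with the preparation as a block called 2622 rises and 4575 falls.

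**Figure D1:**
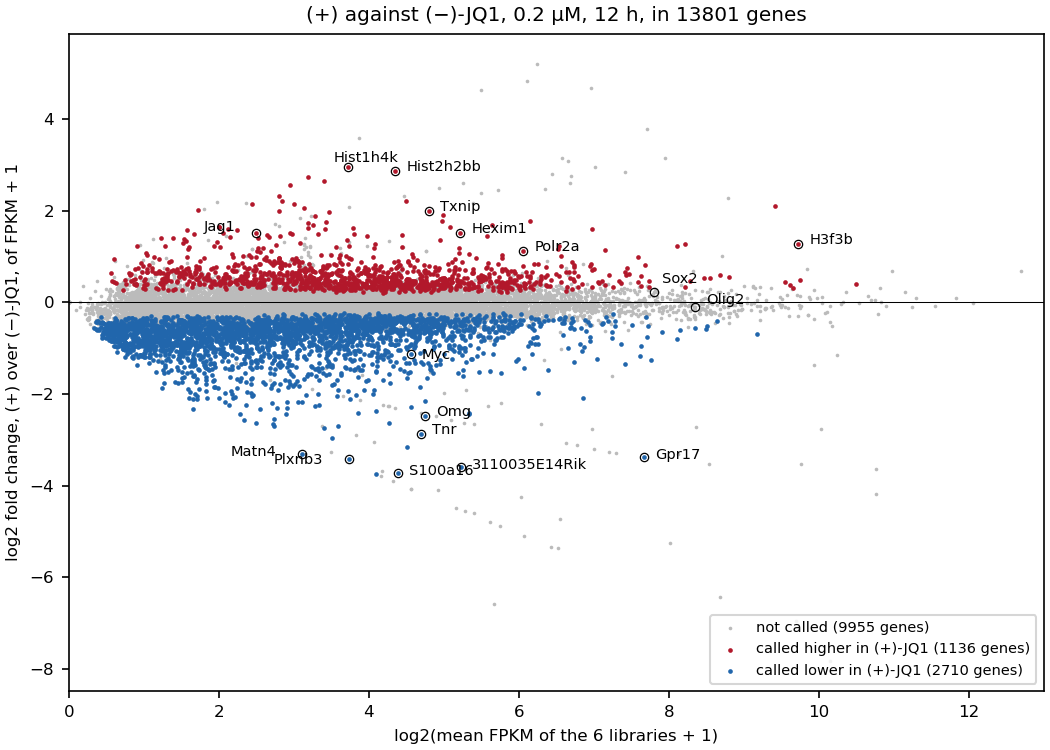
Log2 fold change of FPKM + 1, (+) over (−)-JQ1, against the mean level of each of 13801 genes over the 6 libraries. Called rises (1136, red) and falls (2710, blue) are coloured and 17 named genes are ringed; outside short RNA genes, falls reach further from 0 than rises, to −3.72 for S100a16 against 2.95 for Hist1h4k.

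The 12 largest falls among genes with a mean of at least 5 FPKM spanned genes of several kinds. The calcium-binding protein gene S100a16 had 2.09, 1.11 and 2.91 FPKM in (+)-JQ1 cells, against 40.6, 34.99 and 37.8 FPKM in (−)-JQ1 cells, a log2 fold change of −3.72 ± 0.32 (standard error; adjusted p 3.53e-08). The entry 3110035E14Rik, which carries no gene name in the files, had 5.58, 3.84 and 4.79 FPKM in (+)-JQ1 cells, against 82.8, 56.9 and 64.9 FPKM in (−)-JQ1 cells (−3.59 ± 0.15). Each (+)-JQ1 library of both genes lay far below the lowest (−)-JQ1 library, with no preparation standing apart. The semaphorin receptor gene Plxnb3 had 1.48, 1.25 and 1.096 FPKM in (+)-JQ1 cells, against 23.7, 25.8 and 20.5 FPKM in (−)-JQ1 cells (−3.42 ± 0.205). The matrix protein gene Matn4 had 0.6702, 0.553 and 0.508 FPKM in (+)-JQ1 cells, against 14.9, 13.2 and 15.7 FPKM in (−)-JQ1 cells (−3.305 ± 0.22). The focal adhesion adaptor gene Lims2 fell by 3.15 on the log2 scale, the AMP deaminase gene Ampd3 by 2.96, the tetraspanin gene Cd82 by 2.75, the phosphatase gene Ppapdc1a by 2.69 and the neurotensin receptor gene Ntsr2 by 2.65. The largest adjusted p among the 12 was 3.53e-08, of S100a16. Only called genes whose groups did not overlap could enter the 12, so that separation follows from the choice.

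Of the 12 largest rises by the same rule, 11 were clustered histone genes, described as a group later in the text, and the other was Txnip. Further genes outside the histone clusters, given here after Txnip, were chosen after their values were seen. Txnip, which encodes the thioredoxin-interacting arrestin that restrains glucose uptake, had 34.8, 56.7 and 39.8 FPKM in (+)-JQ1 cells, against 8.78, 10.1 and 11.4 FPKM in (−)-JQ1 cells (1.99 ± 0.15, adjusted p 4.34e-09). Chchd7, which encodes a small mitochondrial twin-cysteine protein, had 48.1, 49.4 and 49.2 FPKM in (+)-JQ1 cells, against 10.1, 14.5 and 12.6 FPKM in (−)-JQ1 cells (1.91 ± 0.19). In both genes the (+)-JQ1 libraries were all above the (−)-JQ1 libraries, and (+) library 2 was the highest. Serpini1, the gene of the neuronal serpin neuroserpin, had a log2 fold change of 1.495 ± 0.15, and Habp4, an RNA-binding protein gene, of 1.48 ± 0.105. Efnb2, the gene of the membrane ligand ephrin-B2, had 16.2, 18.8 and 18.4 FPKM in (+)-JQ1 cells, against 5.17, 7.19 and 6.84 FPKM in (−)-JQ1 cells (1.35 ± 0.11). Polr2a, which encodes the largest subunit of RNA polymerase II, had 81.2, 105 and 84.1 FPKM in (+)-JQ1 cells, against 40.2, 46.9 and 35.4 FPKM in (−)-JQ1 cells (1.12 ± 0.13, adjusted p 1.70e-06). The libraries of the groups did not overlap in any of these 6 genes. For all but Polr2a this was a condition of the choice, and Polr2a was chosen after its values were seen.

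Among the proteins that JQ1 binds and the elongation machinery around them, the rise of Hexim1 stood first. Hexim1 encodes the inhibitor that holds P-TEFb in an inactive complex with 7SK RNA, and its transcript is widely used as a sign of BET inhibition. It had 51.6, 51.1 and 59.8 FPKM in (+)-JQ1 cells, against 17.2, 17.8 and 19.5 FPKM in (−)-JQ1 cells, a log2 fold change of 1.52 ± 0.09 (adjusted p 5.04e-11). The 3 libraries of each group were close together and the groups did not overlap. Its paralog Hexim2 went the other way, with 0.6096 ± 0.0533 FPKM in (+)-JQ1 cells, against 1.84 ± 0.2195 FPKM in (−)-JQ1 cells (SD, n = 3 each; −0.82 ± 0.15). Brd2, a target of JQ1 itself, rose to 132 ± 14.2 FPKM in (+)-JQ1 cells, against 87.5 ± 5.11 FPKM in (−)-JQ1 cells (0.59 ± 0.11), and Mepce, which caps and stabilises 7SK RNA, rose by 0.45 ± 0.117 on the log2 scale. In all, 3 of the 14 measured members of this list rose and 1 fell, with a median of 0.2000, beside 8.23% and 19.6% of all genes and a median of −0.07. Median-of-ratios scaling called 5 members higher, and a fit to the 6 libraries with the preparation as a block called 8 higher.

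Myc, a transcription factor of growth that BET inhibitors lower in many tumours, fell. Its level was 11.4, 12.8 and 17.2 FPKM in (+)-JQ1 cells, against 26.4, 29.96 and 37.4 FPKM in (−)-JQ1 cells (−1.13 ± 0.14, adjusted p 2.46e-06). The highest (+)-JQ1 library, of preparation 3, stayed below the lowest (−)-JQ1 library, of preparation 1, and preparation 3 was the highest of both groups. Mycn averaged 0.769 ± 0.2502 FPKM in (+)-JQ1 cells, against 2.25 ± 0.766 FPKM in (−)-JQ1 cells (−0.86 ± 0.16), and Mycl1 averaged 14.9 ± 2.21 FPKM in (+)-JQ1 cells, against 20.2 ± 0.913 FPKM in (−)-JQ1 cells (−0.42 ± 0.14, adjusted p 0.0249, a call lost without 1 of 3 single libraries: (+) 1, (−) 2 or (−) 3). Mxd1, whose product competes with Myc for the partner Max, rose by 0.41 ± 0.105. Of the 12 measured members of the Myc network 1 rose and 3 fell, shares close to those of all genes (8.23% and 19.6%). The list of genes that Myc is known to drive in growth and ribosome making had 9 of 16 members lower and 1 higher, at a median of −0.56. Srm, the gene of spermidine synthase, had 12.1, 12.2 and 18.2 FPKM in (+)-JQ1 cells, against 34.8, 36.4 and 35.95 FPKM in (−)-JQ1 cells (−1.299 ± 0.16). Rrs1, a ribosome assembly factor gene, fell to 9.01 ± 0.855 FPKM in (+)-JQ1 cells, against 21.1 ± 1.85 FPKM in (−)-JQ1 cells (−1.14 ± 0.12), and Nme1, a nucleoside diphosphate kinase gene, to 22.7 ± 4.31 FPKM in (+)-JQ1 cells, against 40.5 ± 4.504 FPKM in (−)-JQ1 cells (−0.82 ± 0.21). Odc1, the first enzyme of polyamine synthesis and a textbook Myc target, was the 1 member that rose, with 155, 147 and 174 FPKM in (+)-JQ1 cells, against 81.5, 83.2 and 101 FPKM in (−)-JQ1 cells (0.84 ± 0.12, adjusted p 2.49e-05). Both Odc1 and Srm act in polyamine synthesis, and they changed in opposite directions without overlap in either. Of 76 ribosomal protein genes measured, none rose and 1, Rpl29, fell (−0.32 ± 0.11), a call that was lost under median-of-ratios scaling and without any 1 of 4 libraries, while the block fit to the 6 libraries called 31 lower.

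Most measured genes of the oligodendrocyte lineage lists fell, at each stage. Its precursors express Pdgfra, Cspg4, Sox10 and Olig2, pass through a short premyelinating stage marked by Gpr17, Enpp6, Bcas1 and Tnr, and then switch on the myelin genes. The lists of the 3 stages had medians of −0.75, −0.85 and −1.55, with 8 of 10, 8 of 11 and 10 of 11 measured members lower and 0, 1 and 0 higher. Over all genes 19.6% fell and 8.23% rose. In bulk RNA, fewer cells of a type and less RNA per cell cannot be told apart.

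Gpr17, which encodes an orphan receptor that marks the premyelinating stage, had 51.6, 28.5 and 28.5 FPKM in (+)-JQ1 cells, against 379, 341 and 391 FPKM in (−)-JQ1 cells (−3.37 ± 0.21, adjusted p 2.28e-10). Preparation 1 kept the most among (+)-JQ1 libraries, and all 3 lay far below the lowest (−)-JQ1 library. Enpp6, a choline phosphodiesterase gene of newly forming oligodendrocytes, had 2.39, 1.76 and 2.44 FPKM in (+)-JQ1 cells, against 24.4, 17.2 and 17.99 FPKM in (−)-JQ1 cells (−2.698 ± 0.13). Tnr, the gene of the matrix protein tenascin-R, had 6.94, 4.61 and 4.199 FPKM in (+)-JQ1 cells, against 50.7, 44.3 and 38.5 FPKM in (−)-JQ1 cells (−2.88 ± 0.21). Bcas1, another gene of early myelinating cells, had 117, 75.9 and 94.97 FPKM in (+)-JQ1 cells, against 276, 216 and 238 FPKM in (−)-JQ1 cells (−1.35 ± 0.21), a smaller fall than those of the other members named here. Rras2, a Ras-family GTPase gene, was the 1 member of the premyelinating list that rose, with 14.9, 15.8 and 15.8 FPKM in (+)-JQ1 cells, against 5.55, 6.22 and 6.74 FPKM in (−)-JQ1 cells (1.21 ± 0.13).

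Among the myelin genes, Mbp, the gene of myelin basic protein, had 26.9, 21.8 and 32.3 FPKM in (+)-JQ1 cells, against 80.6, 74.2 and 85.6 FPKM in (−)-JQ1 cells (−1.55 ± 0.299). Omg had 8.57, 6.31 and 6.902 FPKM in (+)-JQ1 cells, against 45.2, 43.5 and 44.9 FPKM in (−)-JQ1 cells (−2.47 ± 0.21), Mag fell by 1.97 on the log2 scale and Cldn11, a tight junction gene of myelin, by 1.91. All 11 measured myelin genes lay lower in every (+)-JQ1 library than in any (−)-JQ1 library, beside 30.2% of all genes, and Mobp, which was below 0.4 FPKM in all 6 of these libraries, was the 1 that was not called. In the precursor list, Nkx2-2 averaged 13.4 ± 1.896 FPKM in (+)-JQ1 cells, against 33.1 ± 1.78 FPKM in (−)-JQ1 cells (−1.25 ± 0.19), Sox8 73.6 ± 2.67 FPKM in (+)-JQ1 cells, against 154 ± 9.01 FPKM in (−)-JQ1 cells (−1.05 ± 0.12) and C1ql1 13.9 ± 0.783 FPKM in (+)-JQ1 cells, against 36.8 ± 3.06 FPKM in (−)-JQ1 cells (−1.34 ± 0.24). Pdgfra, the receptor for the precursors' mitogen, had 25.2, 22.8 and 28.3 FPKM in (+)-JQ1 cells, against 39.5, 41.02 and 48.6 FPKM in (−)-JQ1 cells (−0.74 ± 0.105). Sox10 averaged 57.7 ± 6.77 FPKM in (+)-JQ1 cells, against 87.1 ± 1.82 FPKM in (−)-JQ1 cells (−0.59 ± 0.199, adjusted p 0.0301), and its call was lost under median-of-ratios scaling and in 5 of 6 fits that left out a library. Olig2, the lineage's founding factor, did not pass the test, with 291, 292 and 366 FPKM in (+)-JQ1 cells, against 296, 348 and 363 FPKM in (−)-JQ1 cells (−0.09 ± 0.11, 95% interval −0.32 to 0.14). Its groups overlapped, and preparation 3 was the highest in both.

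**Figure D2:**
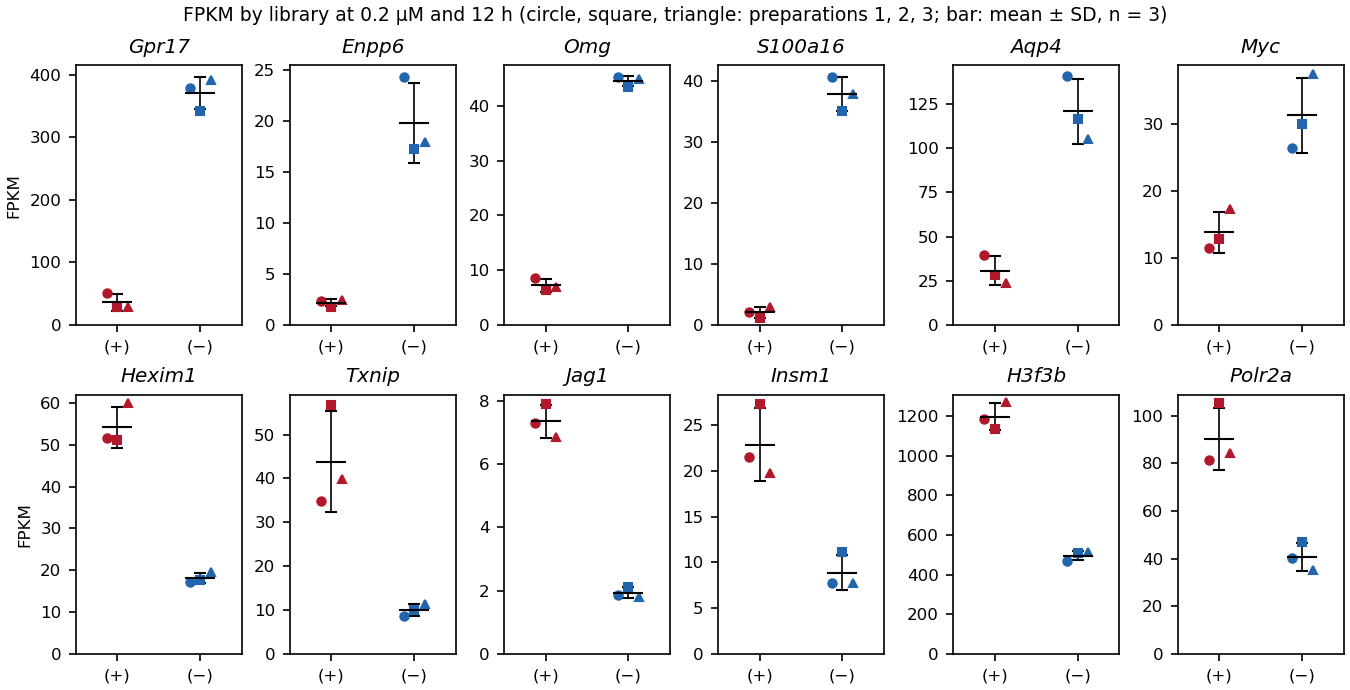
FPKM of 12 genes in each library at 0.2 µM and 12 h, (+)-JQ1 left and (−)-JQ1 right in each panel, with the mean ± SD (n = 3) as bars and a separate linear axis from 0 in each panel. In all 12 genes the groups are separate: the 6 of the upper row are lower and the 6 of the lower row higher in (+)-JQ1 cells.

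Of 23 measured astrocyte genes 8 fell and 1 rose, with a median of −0.43, beside falls in 19.6% and rises in 8.23% of all genes. Leaving out single libraries gave 6 to 10 falls. Aqp4, the water channel of astrocyte endfeet, had 39.8, 28.5 and 23.6 FPKM in (+)-JQ1 cells, against 141, 116 and 105 FPKM in (−)-JQ1 cells (−1.97 ± 0.19, adjusted p 1.25e-07), and the calcium-binding protein gene S100b had 4.81, 2.62 and 3.37 FPKM in (+)-JQ1 cells, against 29.9, 21.5 and 19.1 FPKM in (−)-JQ1 cells (−2.42 ± 0.21). Mlc1, a membrane protein gene of endfeet, averaged 43.7 ± 7.24 FPKM in (+)-JQ1 cells, against 122 ± 13.8 FPKM in (−)-JQ1 cells (−1.46 ± 0.18), and its partner Hepacam 22.6 ± 5.602 FPKM in (+)-JQ1 cells, against 51.3 ± 11.9 FPKM in (−)-JQ1 cells (−1.15 ± 0.19). Gfap had 194, 182 and 179.8 FPKM in (+)-JQ1 cells, against 303, 306 and 269.7 FPKM in (−)-JQ1 cells (−0.65 ± 0.13), and the gap junction gene Gja1 averaged 112 ± 19.8 FPKM in (+)-JQ1 cells, against 190.4 ± 28.4 FPKM in (−)-JQ1 cells (−0.77 ± 0.17). The other 14 measured members, the abundant genes Apoe, Cst3 and Slc1a3 among them, were not called. The block fit to the 6 libraries called 14 of the 23 lower and 4 higher. Sox9, a transcription factor of both astroglia and progenitors, was the 1 that rose, to 153 ± 9.44 FPKM in (+)-JQ1 cells, against 113 ± 13.4 FPKM in (−)-JQ1 cells (0.44 ± 0.12). In the S100 family, 6 of 9 measured genes fell and none rose, with a median of −1.47, beside the same shares of all genes. S100a13 fell by 1.63 on the log2 scale, and S100a3 was listed at 0 in all 3 (+)-JQ1 libraries, against 1.26, 1.0004 and 1.11 FPKM in (−)-JQ1 cells. Among these 6 libraries S100a3 reached the filter of 1 FPKM only in the (−)-JQ1 group, and barely, so it shows little.

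Of 21 measured genes of neural stem cells and radial glia 8 rose, 2 fell and 11 were not called, with a median of 0.31. Over all genes 8.23% rose and 19.6% fell. Pou3f3, a POU-domain factor of cortical progenitors, had 121, 114 and 143 FPKM in (+)-JQ1 cells, against 52.7, 56.6 and 56.7 FPKM in (−)-JQ1 cells (1.17 ± 0.097, adjusted p 1.21e-08). Nes, the progenitor filament nestin, had 102, 114 and 143 FPKM in (+)-JQ1 cells, against 58.1, 65.1 and 82.4 FPKM in (−)-JQ1 cells (0.79 ± 0.17). Each preparation had more Nes with (+)-JQ1 than with (−)-JQ1, and preparation 3 was the highest in both groups. Sox21, a SOX factor of progenitors, rose to 75.6 ± 1.29 FPKM in (+)-JQ1 cells, against 51.01 ± 2.82 FPKM in (−)-JQ1 cells (0.56 ± 0.11), the adhesion molecule gene Cdh2 to 122 ± 1.19 FPKM in (+)-JQ1 cells, against 88.1 ± 4.16 FPKM in (−)-JQ1 cells (0.47 ± 0.12) and Vim by 0.41 ± 0.136. Sox2 was not called (0.23 ± 0.14, 95% interval −0.05 to 0.52, adjusted p 0.234), although the block fit to the 6 libraries called it higher. The 2 that fell were Tnc, the matrix gene tenascin-C of outer radial glia, with 11.2 ± 1.53 FPKM in (+)-JQ1 cells, against 26.2 ± 4.61 FPKM in (−)-JQ1 cells (−1.15 ± 0.199), and Msi1, an RNA-binding protein gene, with −0.59 ± 0.17. The number of rises was 5 without (−) library 1, (+) library 2 or (−) library 3, the block fit to the 6 libraries called 13 higher and 5 lower, and the calls of Vim and Msi1 were each lost without some single libraries.

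Notch signalling holds progenitors back from differentiation: ligands of the Delta and Jagged families on one cell activate Notch receptors on the next, which switch on Hes and Hey repressors. Among ligands and receptors 3 of 7 measured genes rose and none fell, beside rises in 8.23% and falls in 19.6% of all genes. Jag1, a ligand gene, had 7.28, 7.89 and 6.86 FPKM in (+)-JQ1 cells, against 1.87, 2.13 and 1.7997 FPKM in (−)-JQ1 cells (1.51 ± 0.13, adjusted p 1.96e-08), with no overlap and little spread within either group. Dll1, another ligand gene, had 73.8, 105 and 102 FPKM in (+)-JQ1 cells, against 42.8, 57.8 and 54.2 FPKM in (−)-JQ1 cells (0.84 ± 0.18), and the receptor gene Notch2 averaged 23.1 ± 3.12 FPKM in (+)-JQ1 cells, against 14.7 ± 2.36 FPKM in (−)-JQ1 cells (0.62 ± 0.15). Of the modifiers and targets, 3 of 12 rose and 1 fell, beside the same shares of all genes. The target genes Hes5, with 134 ± 9.997 FPKM in (+)-JQ1 cells, against 72.3 ± 10.2 FPKM in (−)-JQ1 cells (0.89 ± 0.27), and Hey2, with 0.62 ± 0.15, rose, as did the Fringe gene Lfng (0.43 ± 0.12), while its paralog Mfng had 0.786, 1.49 and 0.634 FPKM in (+)-JQ1 cells, against 9.904, 11.7 and 9.501 FPKM in (−)-JQ1 cells (−2.55 ± 0.19, adjusted p 2.26e-09). Fringe enzymes add sugars to Notch receptors and change their response to ligands. Lfng and Mfng therefore moved in opposite directions with no overlap in either. The call of Hes5 was lost without (+) library 2 or without (−) library 3.

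Proneural and neurogenic factors did not move as a group, with 2 of 12 higher, 3 lower and a median of −0.103, beside 8.23% and 19.6% of all genes. Insm1, a zinc-finger gene of newborn neurons and intermediate progenitors, had 21.5, 27.3 and 19.8 FPKM in (+)-JQ1 cells, against 7.75, 11.1 and 7.804 FPKM in (−)-JQ1 cells (1.27 ± 0.198, adjusted p 4.60e-05). Sox11, a SOX gene of young neurons, averaged 72.5 ± 12.7 FPKM in (+)-JQ1 cells, against 34.98 ± 7.61 FPKM in (−)-JQ1 cells (1.04 ± 0.25). The 3 that fell, Eomes, St18 and Neurog2, were all below 1.5 FPKM in every library, and 1 of these calls was left without (−) library 1, (−) library 2 or (+) library 3. Genes of the young neuron's cytoskeleton gave 2 rises and 6 falls among 20 members, beside the same shares of all genes. Tubb3, the neuronal tubulin gene, rose to 109.6 ± 12.8 FPKM in (+)-JQ1 cells, against 73.2 ± 7.03 FPKM in (−)-JQ1 cells (0.57 ± 0.18, adjusted p 0.0199), a call lost without (−) library 1, (+) library 2 or (−) library 3, and neither rise in this list was called without (−) library 1. Dcx, the microtubule protein gene doublecortin, had 14.4, 13.4 and 14.9 FPKM in (+)-JQ1 cells, against 26.9, 27.7 and 32.2 FPKM in (−)-JQ1 cells (−0.97 ± 0.18), and Gap43, a growth cone gene, had 4.02, 3.14 and 3.89 FPKM in (+)-JQ1 cells, against 19.3, 17.4 and 17.9 FPKM in (−)-JQ1 cells (−2.04 ± 0.21). Stmn3 averaged 24.7 ± 0.728 FPKM in (+)-JQ1 cells, against 50.4 ± 5.15 FPKM in (−)-JQ1 cells (−0.99 ± 0.15). Tubb3 on one side and Dcx and Gap43 on the other, all markers of young neurons, thus changed in opposite directions. Genes of transmitter release gave 2 rises and 6 falls among 14 members: Cplx1, a complexin gene, fell to 2.82 ± 0.135 FPKM in (+)-JQ1 cells, against 11.6 ± 1.02 FPKM in (−)-JQ1 cells (−1.72 ± 0.11) and the vesicle protein gene Sv2a by 1.32, while Syt1 rose by 0.597 ± 0.122. Rbfox3, the gene of the nuclear marker NeuN, averaged 0.871 ± 0.187 FPKM in (+)-JQ1 cells, against 2.45 ± 0.412 FPKM in (−)-JQ1 cells (−0.88 ± 0.12). Of 14 interneuron and ganglionic eminence genes, none rose and 1, Calb2, fell, and preparation 2 carried the most Dlx1, Dlx2 and Dlx5 in both groups.

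BMP signals and their Id targets steer progenitors towards astrocytes and hold back proneural factors. Of 17 measured members 7 fell, none rose and 10 were not called, with a median of −0.299. Over all genes 19.6% fell and 8.23% rose. Bmp4, a ligand gene, had 2.58, 1.83 and 1.05 FPKM in (+)-JQ1 cells, against 11.6, 9.12 and 6.86 FPKM in (−)-JQ1 cells (−1.87 ± 0.21, adjusted p 6.29e-07). Of the receptors, Bmpr1b was called lower (−0.66 ± 0.14). The targets Id1, with 6.001 ± 2.12 FPKM in (+)-JQ1 cells, against 13.96 ± 2.38 FPKM in (−)-JQ1 cells (−1.13 ± 0.25), Id2, with 36.3 ± 3.94 FPKM in (+)-JQ1 cells, against 64.7 ± 1.899 FPKM in (−)-JQ1 cells (−0.82 ± 0.11), and Id3, with 19.6 ± 5.33 FPKM in (+)-JQ1 cells, against 54.7 ± 6.44 FPKM in (−)-JQ1 cells (−1.46 ± 0.35), fell. Id4 had 74.3, 82.6 and 66.6 FPKM in (+)-JQ1 cells, against 57.97, 70.9 and 53.2 FPKM in (−)-JQ1 cells, and within each preparation the (+)-JQ1 library was the higher. It was not called (0.296 ± 0.14, adjusted p 0.116), but it was called higher under median-of-ratios scaling (adjusted p 0.0443), in the block fit to the 6 libraries (0.00276) and without (−) library 2 (0.0464). In the gliogenic cytokine pathway 4 of 14 members rose and 2 fell, beside 8.23% and 19.6% of all genes. Il6st, the gene of the shared receptor subunit gp130, had 43.2, 40.6 and 38.7 FPKM in (+)-JQ1 cells, against 24.2, 25.8 and 23.7 FPKM in (−)-JQ1 cells (0.71 ± 0.09, adjusted p 6.04e-06), and the kinase gene Jak1 rose by 0.34 ± 0.0937. Stat5b fell (−0.64 ± 0.13), and the feedback inhibitor gene Socs2 averaged 4.14 ± 1.49 FPKM in (+)-JQ1 cells, against 7.32 ± 0.676 FPKM in (−)-JQ1 cells (−0.73 ± 0.197), a call lost without (+) library 3. Stat2 rose by 0.45, a call lost without (+) library 2. The number of rises in this list was 2 without (−) library 3.

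Replication-dependent histone genes, which lie in clusters and are normally transcribed in S phase into mRNAs that end in a stem-loop with no poly(A) tail, rose in most measured cases. Of 67 measured clustered genes 60 rose, none fell and the median was 1.49, beside rises in 8.23% of all genes. The libraries were selected for poly(A), so what was measured is the polyadenylated part of these transcripts. By class, all 12 H3 genes rose, as did 17 of 18 H2A, 16 of 19 H2B, 11 of 13 H4 and 4 of 5 H1 genes. The 7 that were not called were Hist1h1b, Hist1h2ao, Hist2h2be, Hist3h2ba, Hist3h2bb-ps, Hist2h4 and Hist4h4. Summed over the class, H4 genes had 159, 135 and 212 FPKM in (+)-JQ1 cells, against 12.97, 24.8 and 41.4 FPKM in (−)-JQ1 cells, a ratio of means of 6.39. H3 genes summed to 114 ± 9.84 FPKM in (+)-JQ1 cells, against 32.4 ± 1.903 FPKM in (−)-JQ1 cells, a ratio of 3.53. The ratio was 3.19 for H1, 2.97 for H2B and 2.52 for H2A. In every class each (+)-JQ1 sum exceeded each (−)-JQ1 sum, and preparation 3 was the highest in both groups.

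**Figure D3:**
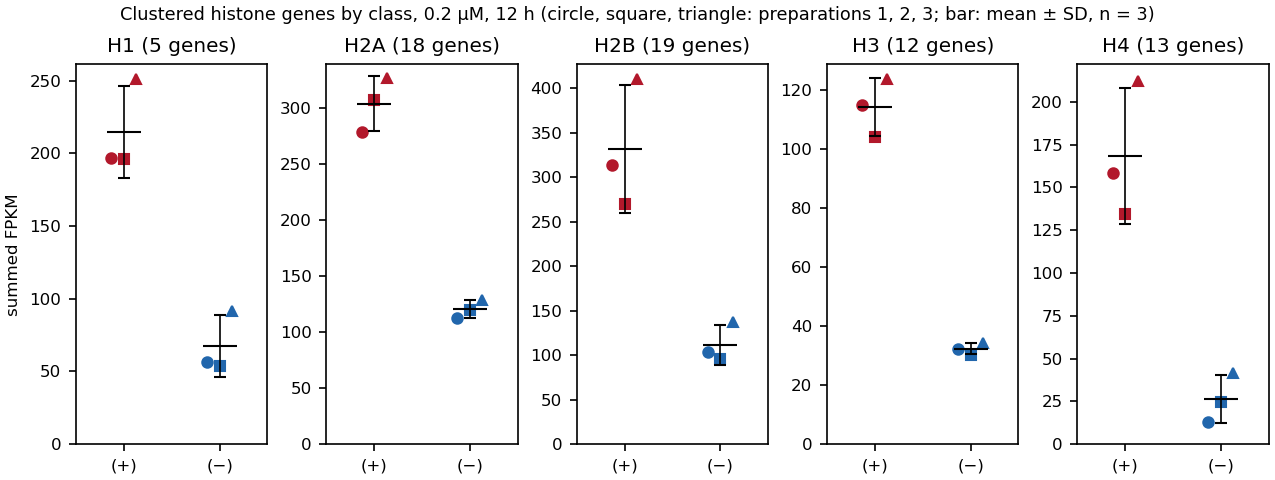
Summed FPKM of the measured clustered histone genes of each class by library, (+)-JQ1 left and (−)-JQ1 right, with the mean ± SD (n = 3) as bars and a separate linear axis from 0 in each panel. The groups are separate in all 5 classes, with H4 sums of 168 ± 39.6 against 26.4 ± 14.3 FPKM.

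Clustered histone genes are near-identical copies, so reads may be shared or assigned between them, and single genes are uncertain. Hist1h2bq and Hist1h2br, for example, had identical values in all 6 libraries. The rises counted above may therefore not all be separate measurements, and the class sums may hold some reads more than once. Of the 67, 32 had transcripts in which at least 50% of 50-base windows occur in no other gene's transcript in the reference. Of these 32, 26 rose, and their median was 1.49. The member with the largest rise in its class was Hist1h1a for H1, Hist1h2ac for H2A, Hist2h2bb for H2B, Hist2h3c1 for H3 and Hist1h4k for H4. The share of unique windows was 100% in Hist1h1a and 85.9% in Hist1h2ac, but 28.5% in Hist1h4k. It was 0 of 332 windows in Hist2h2bb and 0 of 1776 in Hist2h3c1. The values of Hist2h2bb, Hist2h3c1 and Hist1h4k may thus belong in part or whole to other copies. Hist1h4k had 25.7, 19.2 and 21.6 FPKM in (+)-JQ1 cells, against 0.539, 2.801 and 3.495 FPKM in (−)-JQ1 cells (2.95 ± 0.36) and Hist2h2bb 31.6, 33.3 and 39.03 FPKM in (+)-JQ1 cells, against 2.5001, 3.22 and 6.696 FPKM in (−)-JQ1 cells (2.87 ± 0.31). The 150 bases upstream of the start of the 5 genes named for their class are given as examples of promoters of these gene families, read 5′ to 3′ on the gene's strand from RefSeq (GRCm38.p6) at chr13:23763518-23763667 (plus strand), chr13:23683960-23684109 (minus), chr3:96269550-96269699 (plus), chr3:96246535-96246684 (plus) and chr13:21750554-21750703 (minus). Capitals mark CCAAT and TATAAA on either strand.
Hist1h1a: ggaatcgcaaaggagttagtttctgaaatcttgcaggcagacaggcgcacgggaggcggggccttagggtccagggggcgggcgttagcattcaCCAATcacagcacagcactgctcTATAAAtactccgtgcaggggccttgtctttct
Hist1h2ac: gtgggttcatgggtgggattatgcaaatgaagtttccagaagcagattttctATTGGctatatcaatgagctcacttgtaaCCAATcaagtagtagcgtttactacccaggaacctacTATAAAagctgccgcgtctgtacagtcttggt
Hist2h2bb: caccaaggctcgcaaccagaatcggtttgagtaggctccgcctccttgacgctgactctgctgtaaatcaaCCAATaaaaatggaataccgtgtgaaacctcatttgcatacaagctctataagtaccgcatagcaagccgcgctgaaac
Hist2h3c1: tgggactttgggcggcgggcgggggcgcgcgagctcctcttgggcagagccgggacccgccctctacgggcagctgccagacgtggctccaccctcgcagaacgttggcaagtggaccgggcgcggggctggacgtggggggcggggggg
Hist1h4k: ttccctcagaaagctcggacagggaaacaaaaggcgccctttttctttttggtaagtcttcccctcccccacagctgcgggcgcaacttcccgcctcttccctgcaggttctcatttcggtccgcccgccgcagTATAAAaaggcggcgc

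In the 250 bases upstream of the start, CCAAT on either strand was found in 49 of the 60 clustered histone genes with a promoter in the reference table (81.7%), against 9314 of 27025 promoters of all genes (34.5%). TATAAA was found in 28 of them (46.7%), against 3504 of all promoters (12.97%), and the 2 motifs share no more than 1 base when they overlap. Both were present in 23 histone promoters (38.3%) and 1255 of all promoters (4.64%). The classes differed in CCAAT: among H4 genes it was found only in Hist1h4a, Hist1h4c and Hist1h4d. Outside the H4 class only Hist2h3c1 and Hist2h3c2 lacked it. The motifs are matches of letters, and binding at them was not measured.

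Histone genes outside the clusters, most of which are polyadenylated and made throughout the cell cycle, rose in 5 of 11 cases and fell in 1. Over all genes 8.23% rose and 19.6% fell. H3f3b, 1 of the 2 genes of the variant H3.3, had 1187, 1135 and 1269 FPKM in (+)-JQ1 cells, against 469, 508 and 515 FPKM in (−)-JQ1 cells (1.27 ± 0.14, adjusted p 5.99e-07). The lowest (+)-JQ1 library was more than 2-fold above the highest (−)-JQ1 library. H2afx, the variant phosphorylated at DNA breaks, had 60.4, 70.6 and 75.4 FPKM in (+)-JQ1 cells, against 23.1, 24.1 and 26.3 FPKM in (−)-JQ1 cells (1.45 ± 0.12). The linker histone gene H1f0, linked to arrest and differentiation, averaged 194 ± 10.1 FPKM in (+)-JQ1 cells, against 87.3 ± 4.85 FPKM in (−)-JQ1 cells (1.14 ± 0.12). H2afy2, a macroH2A gene, was the 1 that fell, to 24.2 ± 2.17 FPKM in (+)-JQ1 cells, against 49.1 ± 3.44 FPKM in (−)-JQ1 cells (−0.99 ± 0.099).

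Of 26 S phase genes 1 rose and 5 fell, beside 8.23% and 19.6% of all genes, with a median of −0.1997; the share that fell was that of all genes. Pcna, the replication clamp, had 75.9, 78.5 and 95.9 FPKM in (+)-JQ1 cells, against 44.6, 46.2 and 52.2 FPKM in (−)-JQ1 cells (0.79 ± 0.12, adjusted p 2.80e-05). The helicase subunit gene Mcm2 averaged 4.26 ± 0.934 FPKM in (+)-JQ1 cells, against 8.03 ± 1.18 FPKM in (−)-JQ1 cells (−0.79 ± 0.15), and the ribonucleotide reductase gene Rrm1 fell by 0.43, a call lost without (+) library 1, (+) library 2 or (−) library 3. None of 24 genes of G2 and mitosis passed the test in either direction, and 0 had an unadjusted p under 0.05. Their summed level was 38.9, 49.9 and 107 FPKM in (+)-JQ1 cells, against 34.7, 42.7 and 79.5 FPKM in (−)-JQ1 cells. Preparation 3 was the highest in both groups, and the spread between preparations exceeded the difference between the enantiomers. The block fit to the 6 libraries called 5 of the 24 higher. At 24 h and the same dose 16 of these 24 genes were called lower and none higher, beside 21.8% and 11.0% of all genes. At that time 2 libraries held a high share of the short RNA Mir5105, given below. The difference in effect between 24 and 12 h was called by limma in none of the 24, and 16 had an unadjusted p under 0.05 for it. Of 15 G1 cyclins and inhibitors 2 rose and 3 fell, the share of falls being close to that of all genes: Ccnd1, the growth-factor cyclin, fell to 2.91 ± 1.06 FPKM in (+)-JQ1 cells, against 6.33 ± 2.16 FPKM in (−)-JQ1 cells (−0.902 ± 0.21), Cdkn1b, which encodes the inhibitor p27, rose to 69.2 ± 5.46 FPKM in (+)-JQ1 cells, against 51.2 ± 4.96 FPKM in (−)-JQ1 cells (0.43 ± 0.09), and the retinoblastoma gene Rb1 rose to 52.5 ± 0.493 FPKM in (+)-JQ1 cells, against 37.1 ± 1.498 FPKM in (−)-JQ1 cells (0.49 ± 0.13). Without (+) library 1, (+) library 2 or (−) library 3, 2 S phase genes were called lower, and 1 G1 gene without (+) library 2 or (−) library 3. The block fit to the 6 libraries called 10 S phase genes lower, and 4 G1 genes higher and 6 lower.

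**Figure D4:**
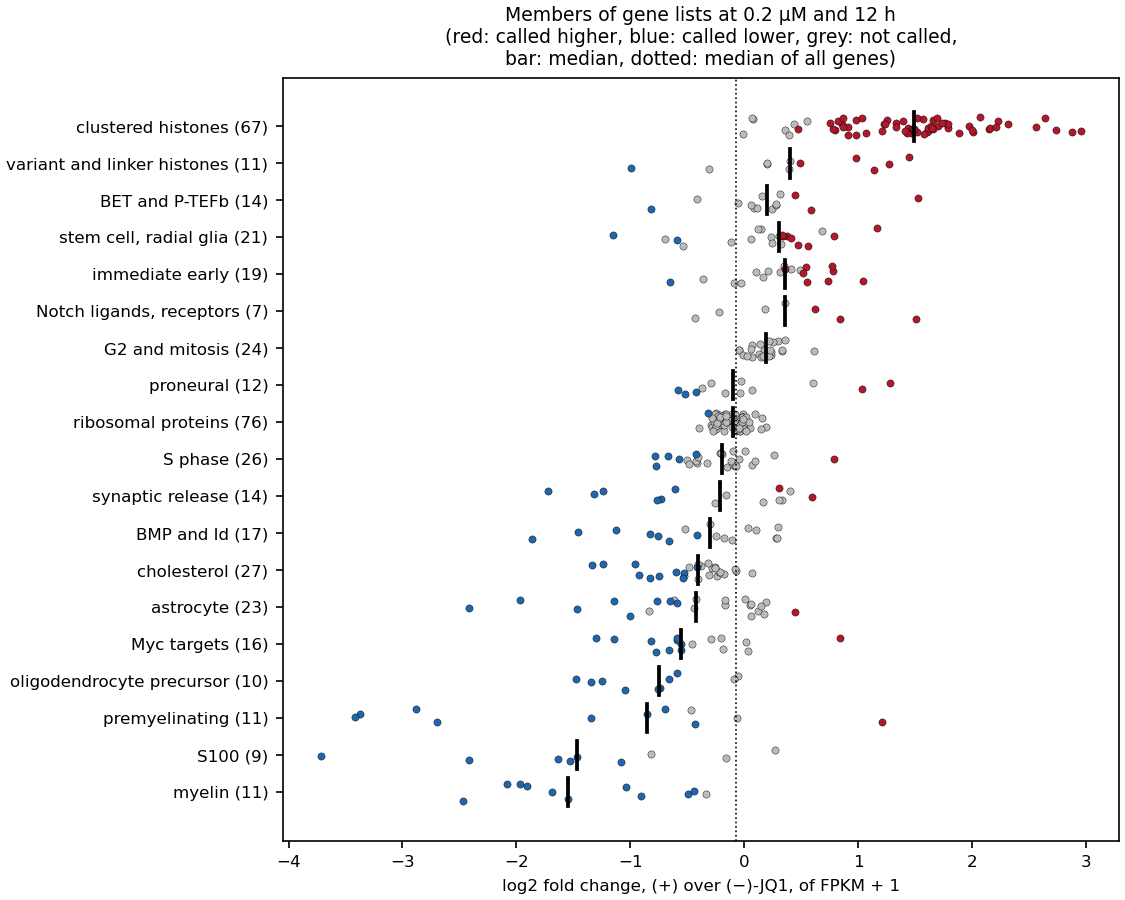
Log2 fold change of FPKM + 1, (+) over (−)-JQ1, of the measured members of 19 gene lists, with the number of members in brackets, the list's median as a bar and the median of all genes (−0.07) as a dotted line. The myelin and S100 lists lie lowest, at medians of −1.55 and −1.47, and the clustered histones highest, at 1.49.

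Immediate early genes, which respond within minutes to growth factor and stress signals, were higher in 8 of 19 cases and lower in 1, with a median of 0.36. Ier2 had 10.4, 14.3 and 13.8 FPKM in (+)-JQ1 cells, against 4.33, 5.91 and 7.099 FPKM in (−)-JQ1 cells (1.04 ± 0.22), the antiproliferative gene Btg1 averaged 21.3 ± 1.53 FPKM in (+)-JQ1 cells, against 12.1 ± 1.301 FPKM in (−)-JQ1 cells (0.77 ± 0.101), the orphan nuclear receptor gene Nr4a2 rose by 0.74 ± 0.117 and the zinc-finger gene Egr1 by 0.78 ± 0.208. The number of rises was 4 to 5 without (−) library 1 or (+) library 3, and the call of Egr1 was lost without either. Of 17 genes of FGF and ERK feedback 1 rose and 5 fell, beside 8.23% and 19.6% of all genes. Etv1, an ETS factor gene downstream of FGF, averaged 46.2 ± 7.15 FPKM in (+)-JQ1 cells, against 71.7 ± 7.94 FPKM in (−)-JQ1 cells (−0.63 ± 0.201) and Spred3 fell by 0.62, while the receptor gene Fgfr1 rose by 0.56 ± 0.172. The calls of Etv1, Etv4 and Spry4 were each lost without some single libraries, the 1 rise was lost without (−) library 1 or (+) library 3, and 2 to 3 genes were called lower without (+) library 1, (+) library 2 or (−) library 3.

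Beside Txnip, the related arrestin genes Arrdc3, with 50.2 ± 2.68 FPKM in (+)-JQ1 cells, against 31.6 ± 2.86 FPKM in (−)-JQ1 cells (0.66 ± 0.13), and Arrdc4, with 9.69 ± 0.442 FPKM in (+)-JQ1 cells, against 6.14 ± 0.744 FPKM in (−)-JQ1 cells (0.59 ± 0.15), rose, and in the list of thioredoxin and arrestin genes 4 of 11 rose and 2 fell. The glucose transporter genes split: Slc2a1, of the widespread transporter, rose to 14.5 ± 0.9102 FPKM in (+)-JQ1 cells, against 8.56 ± 1.55 FPKM in (−)-JQ1 cells (0.703 ± 0.17), and Slc2a3, of the neuronal transporter, fell to 0.9102 ± 0.172 FPKM in (+)-JQ1 cells, against 2.62 ± 0.6096 FPKM in (−)-JQ1 cells (−0.91 ± 0.16). In the list of p53 targets 3 of 19 rose and 4 fell, beside 8.23% and 19.6% of all genes, so the share of falls was close to theirs. Trp53 itself had 24.8, 26.9 and 30.5 FPKM in (+)-JQ1 cells, against 40.4, 48.1 and 48.8 FPKM in (−)-JQ1 cells (−0.72 ± 0.15, adjusted p 0.00119), and Gadd45a, a growth arrest gene, had 12.98, 11.99 and 17.1 FPKM in (+)-JQ1 cells, against 8.19, 6.73 and 6.96 FPKM in (−)-JQ1 cells (0.85 ± 0.15). Cdkn1a, the classic p53 target p21, was not called, with 19.02, 18.2 and 40.5 FPKM in (+)-JQ1 cells, against 25.2, 23.1 and 49.6 FPKM in (−)-JQ1 cells. Preparation 3 was the highest in both groups, and within each preparation the (+)-JQ1 library was the lower. The block fit to the 6 libraries called Cdkn1a lower (−0.34, adjusted p 0.00178) and 8 of the list lower in all. Only 1 rise in this list was called without (−) library 1, (−) library 2 or (+) library 3. Of 16 genes of the integrated stress and unfolded protein responses 5 rose and 2 fell, beside 8.23% and 19.6% of all genes. Xbp1, a factor of the unfolded protein response, averaged 8.305 ± 0.564 FPKM in (+)-JQ1 cells, against 17.01 ± 1.96 FPKM in (−)-JQ1 cells (−0.95 ± 0.16) and Herpud1 5.06 ± 0.9999 FPKM in (+)-JQ1 cells, against 8.399 ± 1.14 FPKM in (−)-JQ1 cells (−0.64 ± 0.17). Ddit3 and Ddit4 were called higher at adjusted p 0.0477 and 0.0438, and both calls were lost with the preparation as a block over all groups, which left 2 rises, as did leaving out (−) library 1, 2 or 3 or (+) library 3.

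Genes of cholesterol synthesis and uptake, which SREBP factors drive together, fell in 10 of 27 cases and rose in none, with a median of −0.403. Over all genes 19.6% fell and 8.23% rose. Fdps, which makes farnesyl diphosphate, had 23.4, 19.3 and 27.1 FPKM in (+)-JQ1 cells, against 56.8, 44.03 and 69.8 FPKM in (−)-JQ1 cells (−1.24 ± 0.204, adjusted p 8.36e-05), and the factor gene Srebf1 averaged 20.2 ± 2.395 FPKM in (+)-JQ1 cells, against 39.1 ± 0.865 FPKM in (−)-JQ1 cells (−0.93 ± 0.196). Preparation 2 was the lowest of both groups for Fdps. Idi1 fell by 0.96, a call lost without (−) library 1, (+) library 2 or (−) library 3, and Scd2, the abundant brain desaturase gene, was not called. The number of falls was 4 to 6 without (−) library 1, (+) library 2 or (−) library 3, and 22 in the block fit to the 6 libraries, in which the levels of the preparations are removed.

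In antigen presentation and interferon genes 4 of 17 rose and 6 fell, beside 8.23% and 19.6% of all genes. The classical MHC class I genes H2-K1, with 16.5, 19.9 and 16.4 FPKM in (+)-JQ1 cells, against 8.14, 6.18 and 6.54 FPKM in (−)-JQ1 cells (1.23 ± 0.17), and H2-D1, with 10.8, 11.7 and 10.7 FPKM in (+)-JQ1 cells, against 3.96, 3.34 and 4.58 FPKM in (−)-JQ1 cells (1.29 ± 0.23), rose together with their light chain gene B2m, with 69.5 ± 1.7002 FPKM in (+)-JQ1 cells, against 44.7 ± 3.23 FPKM in (−)-JQ1 cells (0.63 ± 0.14). The peptide transporter genes Tap1 and Tap2, which load these molecules, fell by 0.45 and 0.79. The call of Tap1 was lost under median-of-ratios scaling, at a pseudocount of 0.1, with no filter, with the libraries compared alone and in 5 of 6 fits that left out a library, at adjusted p of 0.0513 to 0.2795. The interferon receptor gene Ifngr2 fell to 8.01 ± 1.55 FPKM in (+)-JQ1 cells, against 16.2 ± 2.31 FPKM in (−)-JQ1 cells (−0.94 ± 0.14). Plexin and semaphorin guidance genes gave 4 rises and 9 falls among 24 members, beside the same shares of all genes. Besides Plxnb3, the ligand gene Sema5a had 1.398, 1.13 and 1.42 FPKM in (+)-JQ1 cells, against 10.7, 9.93 and 10.7 FPKM in (−)-JQ1 cells (−2.304 ± 0.12, adjusted p 1.08e-11), Sema6b averaged 1.81 ± 0.0472 FPKM in (+)-JQ1 cells, against 4.32 ± 0.0807 FPKM in (−)-JQ1 cells (−0.92 ± 0.15) and Sema4d, the best known ligand of B plexins, 0.392 ± 0.0538 FPKM in (+)-JQ1 cells, against 2.01 ± 0.319 FPKM in (−)-JQ1 cells (−1.11 ± 0.12), while the receptor gene Plxna3 rose to 25.1 ± 2.05 FPKM in (+)-JQ1 cells, against 13.2 ± 1.92 FPKM in (−)-JQ1 cells (0.89 ± 0.18). Of 21 tetraspanin genes 9 fell and 1 rose, beside 19.6% and 8.23% of all genes, and the block fit to the 6 libraries called 14 lower. Cd9 averaged 28.2 ± 3.99 FPKM in (+)-JQ1 cells, against 61.8 ± 9.25 FPKM in (−)-JQ1 cells (−1.101 ± 0.17), Cd151 11.3 ± 2.003 FPKM in (+)-JQ1 cells, against 24.7 ± 2.41 FPKM in (−)-JQ1 cells (−1.07 ± 0.15) and Tspan4 5.03 ± 0.555 FPKM in (+)-JQ1 cells, against 14.8 ± 1.24 FPKM in (−)-JQ1 cells (−1.39 ± 0.25), beside the larger fall of Cd82. Of 20 matrix and adhesion genes 5 fell and none rose, a share of falls close to that of all genes (19.6%). The falls were led by Matn4 and followed by Tnc and the collagen gene Col11a1, with 7.61 ± 0.671 FPKM in (+)-JQ1 cells, against 16.5 ± 1.02 FPKM in (−)-JQ1 cells (−1.02 ± 0.12). Leaving out single libraries gave 3 or 4 falls in that list, the block fit to the 6 libraries gave 11, and the calls of Col4a2 and Col1a1 were lost in most of these fits.

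Markers of other cell types that the culture could hold are given for the whole lists. Members were called lower in the contractile, pericyte and fibroblast, and ependymal lists, and none was called in the microglial, endothelial and erythroid lists. Of 11 contractile and smooth muscle genes 5 were measured and 2 fell, Myl9 with 6.397 ± 0.719 FPKM in (+)-JQ1 cells, against 23.4 ± 6.29 FPKM in (−)-JQ1 cells (−1.698 ± 0.1996) and Acta2 with 44.2 ± 6.37 FPKM in (+)-JQ1 cells, against 63.3 ± 6.11 FPKM in (−)-JQ1 cells (−0.51 ± 0.15), the call of Acta2 lost without (+) library 1 or (−) library 2. The summed level of the 11 was 103, 133 and 129 FPKM in (+)-JQ1 cells, against 151, 208 and 188 FPKM in (−)-JQ1 cells. Pericyte and fibroblast genes summed to 3.87, 3.86 and 5.45 FPKM in (+)-JQ1 cells, against 5.98, 6.54 and 10.5 FPKM in (−)-JQ1 cells, with Pdgfrb (−0.86 ± 0.17) and Col1a1 (−0.44 ± 0.16, a call lost in 5 of 6 fits without a library) lower. Ependymal genes summed to 5.47, 7.19 and 4.49 FPKM in (+)-JQ1 cells, against 12.3, 18.5 and 12.7 FPKM in (−)-JQ1 cells: Foxj1, the master factor of motile cilia, averaged 4.31 ± 0.693 FPKM in (+)-JQ1 cells, against 11.6 ± 2.43 FPKM in (−)-JQ1 cells (−1.24 ± 0.18) and Rsph1 fell by 0.68, a call lost in 4 of 6 fits without a library. Microglial genes summed to 2.72, 3.12 and 3.89 FPKM in (+)-JQ1 cells, against 1.27, 3.14 and 2.83 FPKM in (−)-JQ1 cells, 7 of 12 were at 0 in all 6 libraries, and Cd68, the 1 measured, had 2.66, 2.805 and 3.64 FPKM in (+)-JQ1 cells, against 0.999, 2.74 and 2.51 FPKM in (−)-JQ1 cells and was not called. Endothelial genes summed to 0.684, 1.48 and 0.789 FPKM in (+)-JQ1 cells, against 1.05, 2.59 and 1.201 FPKM in (−)-JQ1 cells and erythroid genes to 0.0493, 0.0501 and 0.153 FPKM in (+)-JQ1 cells, against 0.148, 0.04895 and 0.146 FPKM in (−)-JQ1 cells. Whether such cells had a part in the results above was not tested.

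The share of genes called differed with level. With the genes split into 5 equal classes by their mean FPKM over all 24 libraries, 31.3% of genes in the lowest class fell and 4.49% rose, against 9.46% and 9.203% in the highest class. Falls outnumbered rises most in the lowest class, and the counts were nearly equal in the highest. The mean level includes the (+)-JQ1 libraries, so a gene that falls is moved towards the lower classes. A low gene could also pass the filter through (−)-JQ1 libraries alone. Level and effect are therefore not independent in this split. With the genes split in the same way by their longest coding transcript, known for 11870 genes (86.01%), the share that rose was 6.23% in the shortest and 12.6% in the longest class, and the share that fell 19.8% and 20.5%. Level and length were not separated from each other here.

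Genes that change as differentiation proceeds were read from the 6 (−)-JQ1 libraries at 0.5 µM, which the comparison uses only for the shared estimate of spread: 537 genes were higher (3.89%) and 179 lower (1.30%) at 24 h than at 12 h. Of the 537 genes that rose with time, 280 (52.1%) fell in (+)-JQ1 cells at 0.2 µM and 12 h and 45 rose, at a median of −0.43. Of the 179 that fell with time, 62 (34.6%) fell and 22 rose, at a median of −0.21. Among the 13085 genes with no called change over time, 18.1% fell and 8.17% rose. The share that rose was 8.38% among the genes that rose with time and 12.3% among those that fell with time. The class that fell with time thus held larger shares of both falls and rises than the genes with no called change. These shares were not tested against each other. The time and enantiomer contrasts share each gene's estimate of spread, from the same fit. A gene with a small spread is thus more readily called in both.

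The calls at 0.2 µM and 12 h recurred at the higher dose and the later time, in libraries of their own. If the title numbers mark preparations, as taken here, these libraries came from the same preparations and are not independent biological replicates. The contrasts also share each gene's estimate of spread, from the same fit, so a gene with a small spread is more readily called in all of them. The overlaps below are therefore not independent tests of the calls. At 0.5 µM and 12 h 1682 genes rose (12.2%) and 3599 fell (26.1%), and at 0.2 µM and 24 h 1523 rose (11.0%) and 3006 fell (21.8%). At 0.2 µM and 24 h the short RNA Mir5105 made up 42.7% of the FPKM sum in (−) library 1 and 46.9% in (+) library 2. In the other libraries of these groups it made up 3.01% to 3.28%. The calls at 24 h were not refitted without these 2 libraries. Of the 1136 rises, 1061 (93.4%) were called higher at 0.5 µM, where they made up 63.1% of the rises, and 868 (76.4%) at 24 h, where they made up 56.99%. Of the 2710 falls, 2569 (94.8%) were called lower at 0.5 µM, 71.4% of the falls there, and 2173 (80.2%) at 24 h, 72.3% of the falls there. Only 1 gene was called in opposite directions, between 12 and 24 h, and none between the doses.

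The test of the difference itself singled out few genes. The effect of the enantiomers differed between 0.5 and 0.2 µM at 12 h in 6 genes (0.0435%), all of which fell further at the higher dose, and 386 genes had an unadjusted p under 0.05. Gpr17 had a log2 fold change of −6.17 ± 0.21 at 0.5 µM, against −3.37 ± 0.21 at 0.2 µM, a difference of −2.7999 ± 0.302 (adjusted p 1.03e-04). Enpp6, another premyelinating gene, had −3.82 ± 0.13 at 0.5 µM, against −2.698 ± 0.13 at 0.2 µM. The glutamate transporter gene Slc1a1 had −2.302 ± 0.0999, against −1.46 ± 0.0999, and Rap1gap, which switches off the GTPase Rap1, −3.22 ± 0.11, against −2.29 ± 0.11. The entries 3110035E14Rik and 1810041L15Rik differed by −1.22 ± 0.21 and −0.98 ± 0.15. Gpr17 was the 1 gene of the 6 called in every fit tried. For the other genes no difference between the doses was called with 3 libraries a group, which does not show that the doses act alike.

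Between 24 and 12 h at 0.2 µM the effect differed in 3 genes (0.0217%), with 611 at an unadjusted p under 0.05. Pcp4, a calmodulin-binding protein gene of neurons, had 5.92, 4.81 and 6.56 FPKM in (+)-JQ1 cells, against 16.5, 13.9 and 11.5 FPKM in (−)-JQ1 cells at 12 h. Its log2 fold change was 0.77 ± 0.22 at 24 h, against −1.14 ± 0.22 at 12 h (difference 1.91 ± 0.32, adjusted p 0.0268). Ddc, the decarboxylase of dopamine and serotonin synthesis, had −2.23 ± 0.14 at 24 h, against −0.84 ± 0.14 at 12 h, and Ccdc3 −2.11 ± 0.14, against −0.86 ± 0.14. Each of the 3 calls was lost in several of the fits tried. Among the genes described above, Jag1 had a log2 fold change of 2.44 ± 0.13 at 24 h and 1.998 ± 0.13 at 0.5 µM, Hexim1 of 1.302 ± 0.09 and 1.88 ± 0.09, Txnip of 1.89 ± 0.15 and 2.52 ± 0.15, and Myc of −1.41 ± 0.14 and −1.52 ± 0.14. In these 4 genes neither difference from the effect at 0.2 µM and 12 h was called.

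**Figure D5:**
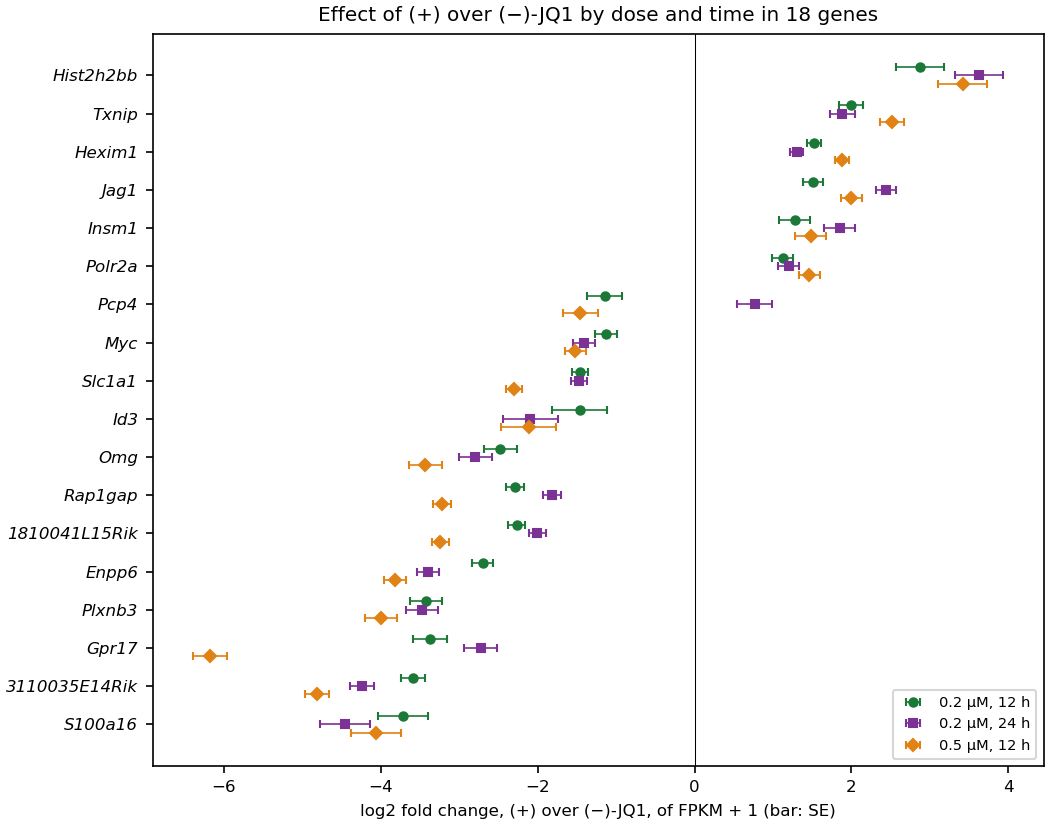
Log2 fold change of FPKM + 1, (+) over (−)-JQ1, ± SE in 18 genes at 0.2 µM and 12 h (circles), 0.2 µM and 24 h (squares) and 0.5 µM and 12 h (diamonds), each against its own (−)-JQ1 libraries. Gpr17 falls furthest at 0.5 µM, at −6.17, and Pcp4 is the 1 gene shown whose sign at 24 h, at 0.77, is opposite to that at 12 h.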

How the data were processed

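RNA of 24 libraries from mouse cortical progenitor cultures was measured by sequencing, 6 of them for the comparison reported here. Per the labels' protocols, RNA was purified with RNeasy columns and DNase, selected for poly(A), fragmented, copied with random hexamers and read from 1 end at 50 bases. Per the submitters' processing notes, FastQC and TopHat2 were used with the mm9 build, their versions being unknown. The authors deposited 1 file per library with a value per gene, read here as FPKM because the values are not whole and the steps between low values depend on the gene, and the program and annotation behind them are not given in the sources used here. No strand-marking kit is stated, so a gene and its antisense partner cannot be told apart. Read depth is unknown, and no count test was run.

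Genes with at least 1 FPKM in 3 or more libraries were kept, leaving 13801, and 58 entries with a repeated symbol were left out. Limma 3.58.1 in R 4.3.3 was fitted to log2(FPKM + 1) with 1 mean per group over all 24 libraries (8 groups, 16 residual degrees of freedom, trended and robust variance), and p-values were Benjamini-Hochberg adjusted over all genes, with calls under 0.05. A fold change on this scale understates the change of low genes. Dose and time differences were contrasts of the same fit. The fitting was tested on simulated data. P-values rest on the spread between libraries within a group, pooled over the 8 groups. The main fit held no term for the preparation.

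Libraries with the same number deviated together: the correlation of their deviations from the group means was 0.105, 0.133 and 0.112 for preparations 1, 2 and 3, against −0.0933 to −0.0227 between numbers. The numbers come from the titles. They were taken as the 3 preparations the labels mention, because all 3 correlations were over 0.1, and no label states that match. Alternatives were median-of-ratios scaling, a pseudocount of 0.1, no filter, the libraries compared alone, library weights, the preparation as a block, each library left out and, for time, the omission of the 2 libraries with the highest Mir5105. The block within the 6 libraries was chosen after seeing the data.

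The gene lists and their members were chosen with earlier results of these data known. Named genes were the 12 largest called rises and falls at a mean of at least 5 FPKM with no overlap and no short RNA, up to 4 called members per list with the largest change and at least 2 FPKM, 12 set genes, and up to 4 genes per direction with called dose or time differences. Other named genes, among them the rises outside the histone clusters other than Txnip, were chosen after their values were seen. Some genes that the rule names are not reported here.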

Additional observations from a re-analysis of the deposited data

Results flagged for a closer look

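In 9 genes the effect of the enantiomers differed between doses or times by a test of the difference itself (limma, adjusted p under 0.05 over all genes). Differences are in log2(FPKM + 1), and each compares 3 libraries a group. The effect at 0.5 µM minus that at 0.2 µM, at 12 h, was −2.7999 ± 0.302 for Gpr17, −1.22 ± 0.21 for 3110035E14Rik, −1.12 ± 0.19 for Enpp6, −0.98 ± 0.15 for 1810041L15Rik, −0.93 ± 0.16 for Rap1gap and −0.85 ± 0.14 for Slc1a1 (± SE). In all 6 the fall was larger at the higher dose. The effect at 24 h minus that at 12 h, at 0.2 µM, was 1.91 ± 0.32 for Pcp4, −1.39 ± 0.195 for Ddc and −1.24 ± 0.19 for Ccdc3. Gpr17 was the 1 gene of the 9 whose call held in every fit tried.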

How the results depend on the processing

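The numbers of rises and falls, 1136 and 2710, became 1735 and 2311 with median-of-ratios scaling, 1773 rises with library weights, and 2622 and 4575 with the replicate block in the fit to the 6 libraries alone. Leaving out 1 library gave 767 to 958 rises and 2116 to 2382 falls, with fewer samples in the fit. At a pseudocount of 0.1, 188 rises and 1141 falls reached 2-fold, since low levels are shrunk less. The replicate block over all 24 libraries gave 1178 rises and 2782 falls, ended the calls of Col1a1, Ddit3, Ddit4 and Elavl4 and added that of Cnn2, and it changed no other call among the named genes. The 6 genes whose effect differed with dose became 2 with median-of-ratios scaling, 10 at a pseudocount of 0.1, 3 with no filter, 14 with the libraries compared alone, 33 with library weights, and 1 to 5 without single libraries. The 3 genes whose effect differed with time became 1 with median-of-ratios scaling, 0 at a pseudocount of 0.1, with the libraries compared alone and with library weights, 1 without the 2 libraries with the highest Mir5105, and 1 to 4 without single libraries. The causes of these shifts were not tested. The log2 fold change of the uncalled gene Col3a1 was −0.52 to 0.00512 without single libraries, and its sign turned only without (−) library 3. No gene called in the comparison changed sign under any alternative. Low levels limit the smallest changes that could be called, and the pseudocount understates them.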
